A study of Mus musculus with 6 samples.

Results

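Among 29955 genes in a table of RNA-seq values from mouse embryonic fibroblasts (MEFs), 77 genes carried the symbols of the extracellular and membrane-bound metalloproteinases and their inhibitors. They were taken by name alone and comprised 23 matrix metalloproteinases (Mmp), 19 Adamts genes, 5 Adamts-like (Adamtsl) genes, 26 Adam genes and 4 tissue inhibitors of metalloproteinases (Timp). Their expression was compared between 3 libraries of Rnf40+/+ MEFs and 3 libraries of Rnf40-/- MEFs, all from primary cells at passage 3. RNF40 is a subunit of the ubiquitin ligase that adds ubiquitin to histone H2B, and the study asked how its loss alters transcription. Rnf40-/- cells came from embryos homozygous for loxP sites around exons 3 and 4 of Rnf40 that also carried Rosa26-CreERT2, a Cre recombinase expressed in all cells and switched on by 4-hydroxytamoxifen (4-OHT). They were kept in 250 nM 4-OHT for 5 days and then for 3 days without it. Whether the Rnf40+/+ cells carried the Cre transgene or received 4-OHT is not given in the sources used here, so the deletion and the treatment cannot be told apart.

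Matrix metalloproteinases are zinc enzymes that are made as inactive precursors and, once their propeptide is removed, cut collagens, proteoglycans, elastin and other matrix proteins outside the cell. Adamts enzymes cut the large proteoglycans and process procollagens, Adam proteins at the cell membrane release the outer parts of other membrane proteins, and TIMPs bind the active site of these enzymes and block it. Fibroblasts are a main source of both the enzymes and the inhibitors, and the balance between them helps set how fast connective tissue is turned over.

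Values in the table are read counts scaled by a size factor for each library, called normalized counts here. The libraries held 17053436 to 26344170 reads on genes in Rnf40+/+ and 18115481 to 20495627 in Rnf40-/- MEFs, and 3 reads, taken as the limit of detection, corresponded to a normalized count of 2.40 to 3.58 (counting error alone). Normalized counts of Rnf40 were 1278, 1195 and 1096 in Rnf40+/+ and 439, 519 and 487 in Rnf40-/- libraries, over the whole gene including the exons that were not deleted. All 8 fibroblast markers examined were detected in every library. By the test given below, 7 of them fell in Rnf40-/- MEFs (87.5%, against 24.1% of all genes tested). Rnf40+/+ replicate 3 stood apart from the other Rnf40+/+ libraries, with a chi-square per gene of 28.8 and 25.9 against them, compared with 8.35 between replicates 1 and 2. For several genes whose values rest on replicate 3, the log2 fold change without that library is also given below. Nothing in the labels says that replicates were separate cultures or embryos, so p-values measure the spread between these samples only, and 3 libraries against 3 cannot give an exact permutation p below 0.1 for a single gene.

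The metalloproteinase genes changed in both directions. Of the 77 genes, 9 had no read in any library, 14 had reads but too few to be tested, and 54 entered the limma fit, made on log2(normalized count + 1) for the 16378 genes of the table with enough reads and adjusted by Benjamini-Hochberg over all of them. With an adjusted p under 0.05, 18 of the 54 were higher (33.3%, against 23.3% of all genes tested) and 19 were lower in Rnf40-/- MEFs (35.2%, against 24.1%), while 17 did not pass. In either direction the share was 68.5%, against 47.4% of all genes. Filtering on reads lets a gene pass through the genotype in which it is high, so these shares describe the genes tested and not all 77. Normalized counts of the 2 genotypes did not overlap for 40 of the 54 genes (74.1%, against 56.5% of all genes). The median log2 fold change was 0.01 over the 54 genes and -0.0035 over all genes.

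The stricter criteria of the study were a mean above 15, unadjusted p under 0.05 and a log2 fold change beyond 1 in either direction. Applied here to the p and fold change of limma, they were met by 13 of the 54 genes and by 9.95% of all genes. The study names DESeq for its own values, so these are not its calls, and its lists of regulated genes were not compared. The 5 that rose were Mmp10, Mmp12, Mmp13, Mmp15 and Adamts8 (9.26%, against 4.25% of all genes), and the 8 that fell were Mmp9, Mmp14, Mmp17, Mmp19, Mmp23, Adam12, Adam19 and Timp1 (14.8%, against 5.70%). The MMPs, 15 of the 54 genes tested, held 9 of these 13. In these bulk samples fewer cells of a type and less RNA per cell cannot be told apart.

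**Figure D1:**
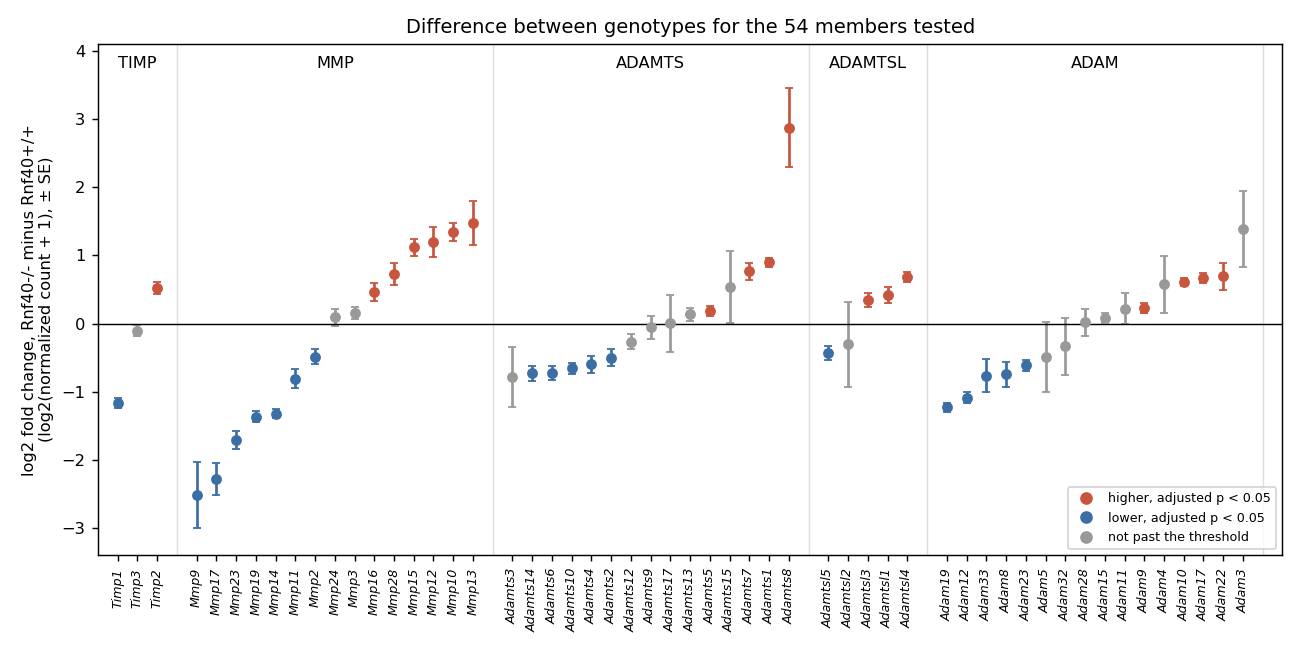
Log2 fold change (Rnf40-/- minus Rnf40+/+, on log2(normalized count + 1)) of the 54 genes tested, grouped by family, with the standard error of limma as bars and the call by colour. MMPs spread from -2.52 for Mmp9 to 1.47 for Mmp13, whereas Adamts8 stands apart from the other Adamts genes at 2.87.

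The inhibitors moved apart from each other. Timp1, a secreted inhibitor that acts weakly on the membrane-type MMPs, lies on the X chromosome (20447292 to 20451861 of mm9, plus strand) and had normalized counts of 9445, 9481 and 8753 in Rnf40+/+ and 4191, 3763 and 4369 in Rnf40-/- libraries. The groups were far apart, with means of 9226 ± 410.2 (SD, n = 3) and 4108 ± 311 (SD, n = 3) (log2 fold change -1.17, SE 0.07, adjusted p = 1.75e-07). Timp2, which inhibits MMPs and also joins the complex that activates the Mmp2 precursor, was higher in every Rnf40-/- library, at 101215, 101943 and 101042 against 68720.1, 76708 and 66127 (log2 fold change 0.53, SE 0.09, adjusted p = 0.000491). Timp3, which is held in the matrix and also inhibits Adam and Adamts enzymes, had 17929, 20446 and 17122 in Rnf40+/+ and 16970.3, 17318 and 17192 in Rnf40-/- libraries. Those ranges overlapped, with a log2 fold change of -0.10 (SE 0.08, adjusted p = 0.288). Timp4, with 0, 3.06 and 0.799 in Rnf40+/+ and 0, 3.13 and 0 in Rnf40-/- libraries, had 7 reads in all and was not tested.

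Per kilobase of exons, which allows genes to be compared with each other, Timp2 was the highest of all 77 genes in both genotypes, with a mean normalized count per kb of 18100 in Rnf40+/+ and 26027 in Rnf40-/- MEFs. Timp1 went from 10390 to 4626 and remained the second highest. With Timp1 lower and Timp2 higher, the summed level of the inhibitors per kb overlapped between genotypes, at 28933 to 32878 in Rnf40+/+ and 32533 to 32966 in Rnf40-/- libraries, but its make-up did not: Timp1 made up 33.8% ± 1.23 (SD, n = 3) of the sum in Rnf40+/+ and 14.1% ± 0.979 (SD, n = 3) in Rnf40-/- MEFs, and Timp2 58.8% ± 1.01 (SD, n = 3) and 79.5% ± 0.896 (SD, n = 3).

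Each of the tested inhibitor genes shares its locus with another gene, and whether reads were counted by strand is not given in the sources used here, although the library kit keeps the strand. For Timp3 this matters most. It lies within Syn3 on the opposite strand (chromosome 10, 85763117 to 85812251 of mm9), and the normalized counts listed for Syn3 were nearly as high as those of Timp3 itself, at 14964, 16611 and 15060.2 in Rnf40+/+ and 12939, 13271 and 13963 in Rnf40-/- libraries. Their reads cannot be told apart. Syn1, which holds Timp1 on the X chromosome, was listed at 124, 135 and 79.1 in Rnf40+/+ and 117, 59.5 and 121 in Rnf40-/- libraries, far below Timp1. BC100451, which overlaps Timp2 on the same strand of chromosome 11, was also higher in each Rnf40-/- library, at 118, 151 and 118 in Rnf40+/+ and 282, 266 and 291 in Rnf40-/- libraries.

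Mmp2 and the enzyme that activates its precursor both fell. Mmp14 encodes MT1-MMP, a collagenase anchored in the membrane that removes the propeptide of Mmp2 with the help of Timp2, and it had normalized counts of 11412, 10224 and 11609 in Rnf40+/+ and 4422, 4385 and 4489.6 in Rnf40-/- libraries. Every Rnf40-/- library was far below every Rnf40+/+ library of this gene (chromosome 14, 55050441 to 55060095 of mm9, plus strand), with means of 11082 ± 749 (SD, n = 3) and 4432 ± 52.9 (SD, n = 3) (log2 fold change -1.32, SE 0.07, adjusted p = 4.66e-08). Mmp2, the gelatinase that fibroblasts make steadily, had 15067, 11349.9 and 10249.6 in Rnf40+/+ against 8431, 8331 and 9144 in Rnf40-/- libraries. All Rnf40-/- values lay below all Rnf40+/+ values, but replicate 1 of Rnf40+/+ was far above its group (log2 fold change -0.48, SE 0.12, adjusted p = 0.00457). Without that library the log2 fold change of Mmp2 was -0.32 (adjusted p = 0.00499 from limma).

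Mmp9, the other gelatinase, which cleaves type IV collagen and is best known from leukocytes, fell more but from a low level. Its normalized counts were 139.7, 56.1 and 72.7 in Rnf40+/+ and 27.5, 15.7 and 5.67 in Rnf40-/- libraries. The groups were apart although each was widely spread (89.5 ± 44.3 (SD, n = 3) and 16.3 ± 10.9 (SD, n = 3), log2 fold change -2.52, SE 0.48, adjusted p = 0.00111), and leaving out any 1 library kept the log2 fold change between -2.99 and -1.95, the smallest drop being that without Rnf40-/- replicate 3. Rnf40+/+ replicate 1, which was highest for both gelatinases, was also highest for skeletal muscle markers, with a summed normalized count of 4895 over 8 genes against 2040 and 1719 in the other Rnf40+/+ libraries and 441 to 506 in Rnf40-/- libraries. Acta1 and Des carried that sum, and Myod1 was at 0 in all 6 libraries. Their part in the values of Mmp2 and Mmp9 was not tested.

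**Figure D2:**
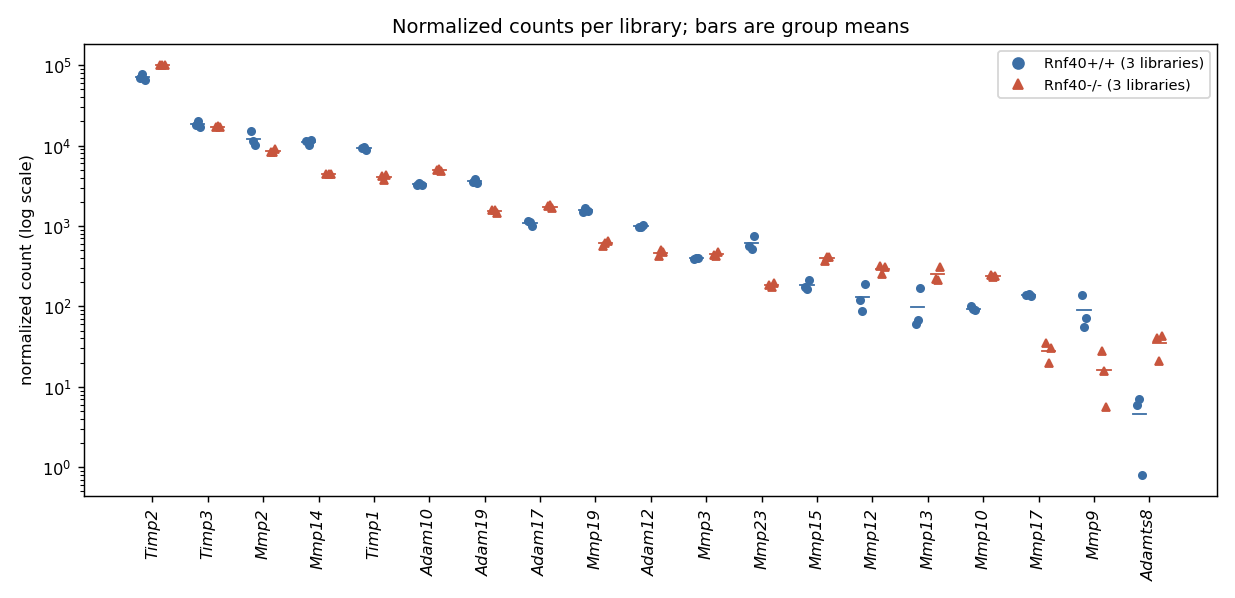
Normalized counts on a log axis in each library for the genes named by value, with bars at the group means. Mmp14, Mmp17, Mmp19, Mmp23, Timp1, Adam12 and Adam19 are lower in all 3 Rnf40-/- libraries than in any Rnf40+/+ library, whereas Timp3 overlaps between the genotypes.

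The other membrane-type MMPs moved in both directions. Mmp17 (MT4-MMP), attached to the membrane by a lipid anchor, had normalized counts of 137, 142 and 133 in Rnf40+/+ and 34.7, 19.8 and 30.2 in Rnf40-/- libraries. That is a fall to 20.5% of the Rnf40+/+ mean (log2 fold change -2.28, SE 0.23, adjusted p = 8.22e-06). Mmp15 (MT2-MMP), a close relative of Mmp14, went the opposite way, from 174, 165 and 213 to 372, 412 and 415 (log2 fold change 1.12, SE 0.12, adjusted p = 1.57e-05). Every Rnf40-/- library was above every Rnf40+/+ library for Mmp15. Mmp16 (MT3-MMP) also rose, by 0.46 in log2 units (adjusted p = 0.0152), but lost the call without Rnf40-/- replicate 1 or 2 and stood at 0.29 without Rnf40+/+ replicate 3, in which it was lowest (379, 351 and 254 in the Rnf40+/+ libraries). Mmp24 did not pass the test (log2 fold change 0.09, adjusted p = 0.565), and Mmp25 had 18 reads in all. Of the 6 membrane-type genes, 2 rose, 2 fell, 1 did not pass and 1 was not tested. Among all genes tested, 23.3% rose and 24.1% fell.

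Among MMPs outside these groups, Mmp19 and Mmp23 fell. Mmp19, found in many resting tissues, had normalized counts of 1515, 1665 and 1536 in Rnf40+/+ and 571, 619 and 643 in Rnf40-/- libraries (log2 fold change -1.36, SE 0.08, adjusted p = 9.55e-08). Mmp23, an unusual member without the hemopexin domain, had 565, 515 and 746 in Rnf40+/+ against 184, 173 and 195 in Rnf40-/- libraries (log2 fold change -1.71, SE 0.13, adjusted p = 1.18e-06). Neither gene's groups came near each other. The neighbour 1110012D08Rik, across from Mmp19 on the opposite strand, was listed at 799, 897 and 811 in Rnf40+/+ and 328, 378 and 358 in Rnf40-/- libraries. The genes share 789 bases, and reads in that stretch cannot be told apart. Mmp11 (stromelysin 3), which is activated inside the cell by furin, fell by 0.81 in log2 units (adjusted p = 0.000543) but its value rested in part on Rnf40+/+ replicate 3, at 2240 against 1457 and 1428 in the other Rnf40+/+ libraries, and was -0.60 without it. Chchd10, which overlaps Mmp11, was also highest in that library, at 68.1, 73.4 and 351 in Rnf40+/+ and 58.1, 43.8 and 72.7 in Rnf40-/- libraries. Mmp21 had no read. Mmp28 (epilysin) rose by 0.73 (adjusted p = 0.00282), from 112, 101 and 84.6 to 160.1, 188 and 148. The gene 1700020L24Rik, which overlaps Mmp28 on the opposite strand, was listed at 65.7, 60.2 and 67.1 in Rnf40+/+ and 104, 135 and 145 in Rnf40-/- libraries. Reads in the 465 bases that it shares with Mmp28 cannot be told apart.

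Summed per kb of exons, MMP expression was lower in all 3 Rnf40-/- libraries (5838 to 6212) than in any Rnf40+/+ library (9472 to 11163). Among the 15 MMPs tested, 6 rose (40%, against 23.3% of all genes) and 7 fell (46.7%, against 24.1%). Most of the MMP sum was carried by Mmp14 and Mmp2 in both genotypes. Mmp14 made up 41.8% ± 2.54 (SD, n = 3) of the MMP sum in Rnf40+/+ and 28.6% ± 0.660 (SD, n = 3) in Rnf40-/- MEFs, and Mmp2 39.1% ± 5.46 (SD, n = 3) and 47.6% ± 0.779 (SD, n = 3). No test was made of these sums.

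**Figure D3:**
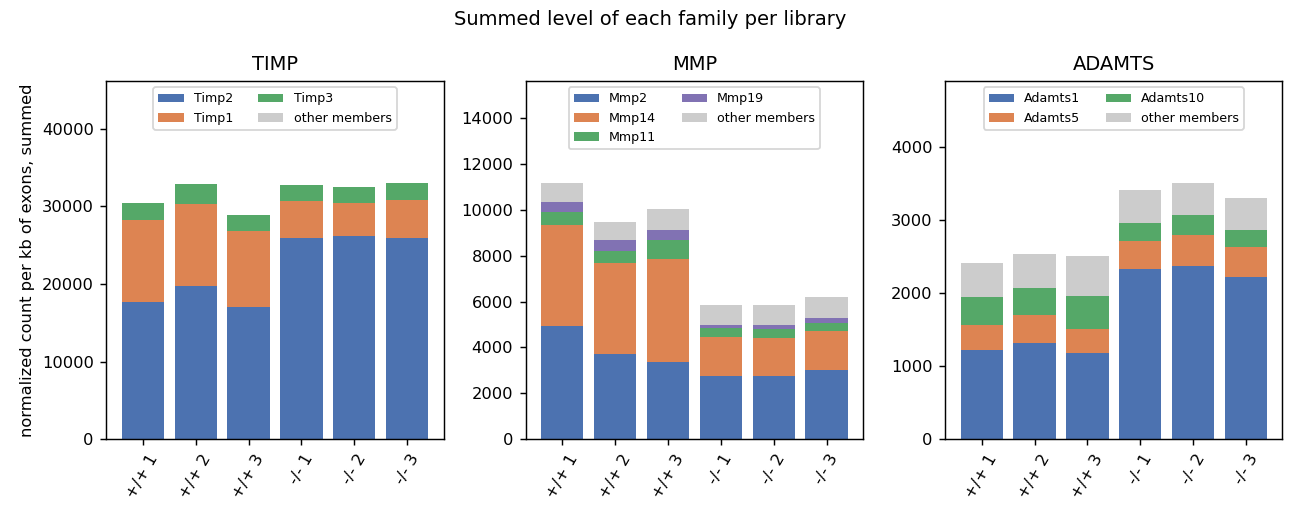
Summed normalized counts per kb of exons in each library for the families, with the leading members in colours and the rest in the last colour. The MMP bars are lower in the 3 Rnf40-/- libraries (5838 to 6212) than in the 3 Rnf40+/+ libraries (9472 to 11163), and in the TIMP bars the Timp1 segment is smaller in Rnf40-/- libraries while the Timp2 segment is larger.

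Of the 6 MMPs that rose, 3 were neighbours. A cluster of 10 Mmp genes spans 7272514 to 7699585 of chromosome 9 (mm9), in the order Mmp13, Mmp12, Mmp1b, Mmp3, Mmp1a, Mmp10, Mmp8, Mmp27, Mmp20 and Mmp7. It holds the collagenases, the stromelysins Mmp3 and Mmp10, the macrophage elastase Mmp12 and the matrilysin Mmp7, many of which are switched on during inflammation and wound healing. Only Mmp13, Mmp12, Mmp3 and Mmp10 had a mean normalized count above 15, and of these 3 rose and Mmp3 did not pass the test. Several promoters of this cluster are known for a TATA box with an AP-1 site nearby, which binds Fos and Jun proteins, so the 250 bases upstream of their RefSeq starts (GRCm38.p6, plus strand, 5′ to 3′, ending at the base before the start) are shown with each match to TGANTCA in capitals. Mmp12 has 2 starts, and the first has no match.
Mmp13, chr9:7272264-7272513: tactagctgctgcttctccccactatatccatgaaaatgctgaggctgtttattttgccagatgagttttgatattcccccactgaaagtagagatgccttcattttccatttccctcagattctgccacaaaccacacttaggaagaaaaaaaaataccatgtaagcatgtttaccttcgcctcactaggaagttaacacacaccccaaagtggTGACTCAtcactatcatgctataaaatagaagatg
Mmp12 first start, chr9:7344147-7344396: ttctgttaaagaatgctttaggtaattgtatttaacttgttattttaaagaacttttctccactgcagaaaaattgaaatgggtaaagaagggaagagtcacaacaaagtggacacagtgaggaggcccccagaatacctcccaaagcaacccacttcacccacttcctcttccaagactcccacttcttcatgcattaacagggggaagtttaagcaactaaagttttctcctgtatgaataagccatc
Mmp12 second start, chr9:7347124-7347373: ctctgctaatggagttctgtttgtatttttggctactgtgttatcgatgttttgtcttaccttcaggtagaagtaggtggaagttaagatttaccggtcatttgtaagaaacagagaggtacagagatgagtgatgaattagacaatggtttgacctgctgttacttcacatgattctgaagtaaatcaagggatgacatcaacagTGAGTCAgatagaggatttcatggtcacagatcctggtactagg
Mmp3, chr9:7445572-7445821: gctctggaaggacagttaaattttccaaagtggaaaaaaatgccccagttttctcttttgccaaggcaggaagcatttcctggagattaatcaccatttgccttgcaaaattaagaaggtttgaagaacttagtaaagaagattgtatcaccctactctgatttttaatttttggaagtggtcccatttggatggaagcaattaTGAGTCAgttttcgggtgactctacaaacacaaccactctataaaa
Mmp10, chr9:7502092-7502341: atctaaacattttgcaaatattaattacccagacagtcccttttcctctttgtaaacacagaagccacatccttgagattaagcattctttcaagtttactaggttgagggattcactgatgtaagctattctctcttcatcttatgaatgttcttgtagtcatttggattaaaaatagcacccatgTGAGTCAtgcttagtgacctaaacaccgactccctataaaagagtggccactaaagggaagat

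The match begins 35 bases before the start in Mmp13, 44 before the second start in Mmp12, 46 in Mmp3 and 63 in Mmp10. TGANTCA reads the same on both strands apart from the middle base, and both strands were searched. In all, 8 of the 10 cluster genes held it in the 250 bases upstream of at least 1 start, as did 3 of the 37 other metalloproteinase or inhibitor genes with a RefSeq promoter. Counted by promoter, 11 of the 52 promoters of all these genes held it (21.2%), against 6.75% of 32851 promoters in the genome. TATAAA, on either strand, was present upstream of at least 1 start in 7 of the 10 genes. Counted by promoter, it was in 21.2% of the 52 and in 12.4% of all promoters. A match describes letters and is no evidence of binding. The genes that hold TGANTCA include Mmp3, which did not pass the test, and Mmp20, which had no read. Any part of these sites in the values was not tested.

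Mmp13 (collagenase 3), which cuts type II collagen and is known from cartilage and bone, had normalized counts of 59.7, 67.3 and 169 in Rnf40+/+ and 220.2, 216 and 313 in Rnf40-/- libraries. Rnf40+/+ replicate 3 was well above the other Rnf40+/+ libraries and below all Rnf40-/- libraries. Means were 98.8 ± 61.2 (SD, n = 3) and 249.9 ± 55.1 (SD, n = 3) (log2 fold change 1.47, SE 0.32, adjusted p = 0.0024), and without that library the log2 fold change was 1.94. Mmp12, the elastase best known from macrophages, showed the same high Rnf40+/+ replicate 3, with 121, 88.7 and 189 in Rnf40+/+ and 315, 256 and 309.7 in Rnf40-/- libraries (log2 fold change 1.20, SE 0.22, adjusted p = 0.000873). Without replicate 3 its log2 fold change was 1.49. Mmp10 (stromelysin 2), which can activate other MMPs, was tight in both groups, at 100.3, 91.8 and 89.4 in Rnf40+/+ against 246, 234 and 241 in Rnf40-/- libraries (log2 fold change 1.35, SE 0.13, adjusted p = 6.09e-06).

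Mmp3 (stromelysin 1), between Mmp12 and Mmp10, had normalized counts of 392, 399 and 404 in Rnf40+/+ and 433, 423 and 477 in Rnf40-/- libraries. The groups did not overlap but lay close together, and the gene did not pass (log2 fold change 0.16, SE 0.09, adjusted p = 0.178). The 6 other genes of the cluster had few or no reads and were not tested. Mmp1b, Mmp27, Mmp1a and Mmp8 had 69, 44, 33 and 8 reads over all libraries, Mmp7 had 1 and Mmp20 none. Mmp1b was above the limit of detection, at 8.36, 9.18 and 6.39 in Rnf40+/+ and 15.3, 7.31 and 21.7 in Rnf40-/- libraries. Mmp1b overlaps the end of Mmp12 on the opposite strand.

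Markers of macrophages, which also make Mmp9 and Mmp12, were present in every library. None of the 12 examined was at 0 in any library, 2 rose (Ptprc and Cd14) and 5 fell (Lyz2, Tyrobp, Fcer1g, Mpeg1 and Ctss), where 23.3% of all genes tested rose and 24.1% fell. Their summed normalized count was 6689 to 11521 in Rnf40+/+ libraries, highest in replicate 3, and 4233 to 4702 in Rnf40-/- libraries. Lyz2 was the largest part of that sum, at 3945, 4557 and 7440 in Rnf40+/+ libraries. Among Rnf40+/+ libraries Mmp12 and Mmp13 were highest in replicate 3, whereas Mmp9 was highest in replicate 1, where the sum and Lyz2 were lowest. Single markers differed in this: Itgam was highest in replicate 1 (519, 303 and 343) and Ptprc lowest there (46.6, 65.3 and 75.9). Between genotypes Mmp9 and the sum were lower in Rnf40-/- libraries, and Mmp12 and Mmp13 were higher. The part of these cells in the values was not tested.

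**Figure D4:**
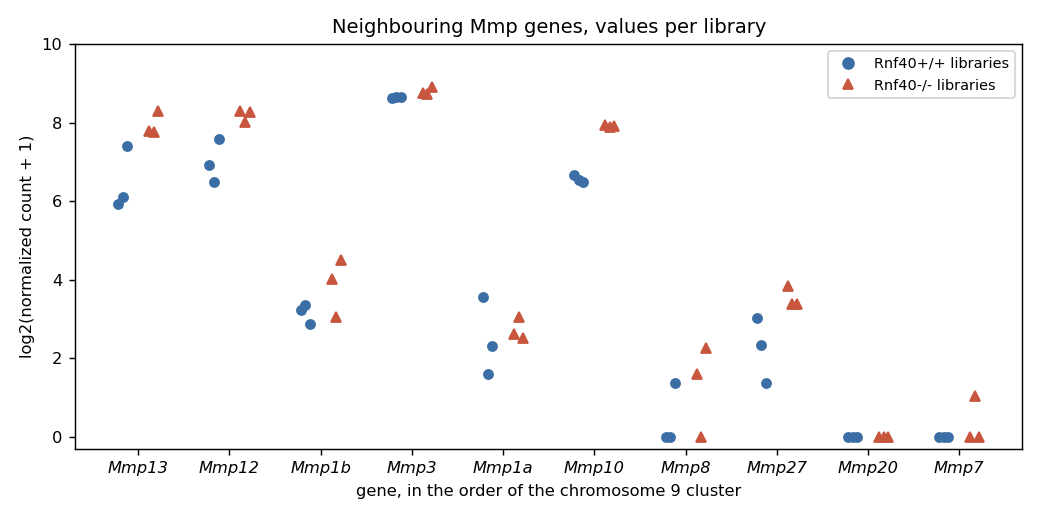
Values on the log2(normalized count + 1) scale in each library for the 10 Mmp genes of the chromosome 9 cluster, in genomic order. Mmp13, Mmp12 and Mmp10 are higher in all Rnf40-/- libraries than in any Rnf40+/+ library, Mmp3 did not pass the test, and the other 6 genes are at few or no reads.

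The Adamts genes also moved in both directions. Among the 15 tested, 4 rose (26.7%, against 23.3% of all genes) and 5 fell (33.3%, against 24.1%). Of the 7 hyalectanases, which cut aggrecan and versican, Adamts1, Adamts5 and Adamts8 rose, Adamts4 fell, Adamts9 and Adamts15 did not pass (log2 fold change -0.05 and 0.54) and Adamts20 was not tested. Adamts15 was highest in Rnf40+/+ replicate 3, at 49.5 against 15.5 and 8.16 in the other Rnf40+/+ libraries, and without that library its log2 fold change was 1.22 and passed the test (adjusted p = 0.0278 from limma), while that of Adamts9 was 0.14. Adamts1, by far the most abundant Adamts gene per kb, had normalized counts of 6454, 6969 and 6238 in Rnf40+/+ and 12318, 12586 and 11783 in Rnf40-/- libraries. All Rnf40-/- values were above all Rnf40+/+ values, with means of 6554 ± 375 (SD, n = 3) and 12229 ± 409 (SD, n = 3) (log2 fold change 0.90, SE 0.07, adjusted p = 6.88e-07). It made up 49.7% ± 2.51 (SD, n = 3) of the summed Adamts level per kb in Rnf40+/+ and 67.8% ± 0.411 (SD, n = 3) in Rnf40-/- MEFs, and that sum was 2413 to 2538 and 3297 to 3498. Adamts8, which is also known as an inhibitor of vessel growth, had 5.97, 7.14 and 0.799 in Rnf40+/+ and 40.8, 20.9 and 42.5 in Rnf40-/- libraries (log2 fold change 2.87, SE 0.58, adjusted p = 0.00155). It was close to the limit of detection in every Rnf40+/+ library and rested on 118 reads in all, and its log2 fold change was 2.18 without Rnf40+/+ replicate 3. Adamts4, the main aggrecanase beside Adamts5, fell by 0.59 in log2 units (adjusted p = 0.00198), while Adamts5 was barely past the threshold (log2 fold change 0.19, adjusted p = 0.048) with overlapping groups, and lost the call when any library other than Rnf40+/+ replicate 2 was left out.

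The procollagen N-proteinases, which trim the fibrillar procollagens, fell where they passed the test. Adamts14 had normalized counts of 322, 328 and 326 in Rnf40+/+ and 210.1, 186 and 193 in Rnf40-/- libraries (log2 fold change -0.73, SE 0.11, adjusted p = 0.000153). Adamts2, with 611, 642 and 898 in Rnf40+/+ against 495, 507 and 498 in Rnf40-/- libraries, fell by 0.50 in log2 units (adjusted p = 0.00633), and by 0.33 without Rnf40+/+ replicate 3, its highest library. Adamts3, with 87 reads in all, did not pass (log2 fold change -0.78, adjusted p = 0.166), but passed without Rnf40+/+ replicate 2. The related enzymes Adamts6 and Adamts10, which bind fibrillin microfibrils, fell as well, by 0.73 and 0.66 in log2 units (adjusted p = 8.81e-05 and 5.63e-05). Of Adamts7 and Adamts12, which cut cartilage oligomeric matrix protein, Adamts7 rose by 0.77 (adjusted p = 0.000246), from 374, 361 and 497 to 644, 707 and 725, and Adamts12 had a log2 fold change of -0.27 and did not pass (adjusted p = 0.0648). Without Rnf40-/- replicate 1, Adamts12 passed the test. Tbc1d2b, which overlaps Adamts7 over 6025 bases on the opposite strand, was listed at means of 1510.1 and 1101, and reads in that stretch cannot be told apart. Adamts13, which cuts von Willebrand factor, and Adamts17 did not pass (log2 fold change 0.14 and 0.00), and Adamts16, Adamts18 and Adamts19 had too few reads.

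Adamts-like genes, which share the matrix-binding domains of the Adamts enzymes but lack the catalytic one, numbered 5. Of these, 3 rose (60%, against 23.3% of all genes tested) and 1 fell (20%, against 24.1%). Adamtsl4, which binds fibrillin-1, had normalized counts of 841, 921 and 825 in Rnf40+/+ and 1333, 1477 and 1359 in Rnf40-/- libraries (log2 fold change 0.69, SE 0.08, adjusted p = 1.67e-05). Adamtsl1 and Adamtsl3 rose by 0.42 and 0.35 in log2 units (adjusted p = 0.00949 and 0.0163), the latter losing its call without Rnf40+/+ replicate 2 or Rnf40-/- replicate 3. Adamtsl5 went down, by 0.43 (adjusted p = 0.00533), and Adamtsl2 did not pass (log2 fold change -0.30), with 48.7 in Rnf40+/+ replicate 3 against 5.97 and 12.2 in the other Rnf40+/+ libraries, and without replicate 3 its log2 fold change turned to 0.49 (adjusted p = 0.482 from limma).

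The best-studied sheddases both rose. Adam10, which cuts Notch receptors and cadherins, had normalized counts of 3254, 3426 and 3211 in Rnf40+/+ and 4966, 5182 and 4895 in Rnf40-/- libraries (log2 fold change 0.60, SE 0.06, adjusted p = 8.22e-06). Adam17, which releases TNF and ligands of the EGF receptor, had 1162, 1123 and 1013 in Rnf40+/+ against 1751, 1825 and 1664 in Rnf40-/- libraries (log2 fold change 0.67, SE 0.07, adjusted p = 1.88e-05). Neither gene's groups overlapped. Adam9, the most abundant Adam gene per kb in both genotypes, rose by 0.23 in log2 units (adjusted p = 0.0153). Without Rnf40-/- replicate 1 or 2 its log2 fold change was 0.23 and 0.21 and it no longer passed (adjusted p = 0.0614 and 0.0709 from limma). Adam15 (3623, 3938 and 4083 against 4192, 3833 and 4332) and Adam28 (log2 fold change 0.02, adjusted p = 0.948) did not pass.

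The meltrins fell instead. Adam19 (meltrin beta), a sheddase of neuregulin needed in heart development, had normalized counts of 3518, 3817 and 3449 in Rnf40+/+ and 1567, 1574 and 1466 in Rnf40-/- libraries (log2 fold change -1.23, SE 0.07, adjusted p = 7.28e-08). Adam12 (meltrin alpha), linked to muscle and fat precursor cells, had 963, 981 and 1017 in Rnf40+/+ against 426, 502 and 469 in Rnf40-/- libraries (log2 fold change -1.08, SE 0.08, adjusted p = 1.07e-06). For both, every Rnf40-/- library was below every Rnf40+/+ library by a margin wider than the spread within either group. Adam8 fell by 0.75 (adjusted p = 0.00459), and by 0.56 without Rnf40+/+ replicate 3, its highest library. Adam33, related to the meltrins, fell by 0.77 (adjusted p = 0.0216). The values of Adam33 were 322, 275 and 635 in Rnf40+/+ and 262, 200.4 and 217 in Rnf40-/- libraries, so that the size of its change rested on Rnf40+/+ replicate 3. Without that library its log2 fold change was -0.40, and the call was lost without Rnf40-/- replicate 2 or 3.

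Among the Adam genes of the nervous system that lack a proteinase site, Adam23 fell by 0.61 in log2 units (adjusted p = 7.85e-05), from 894, 940.2 and 1053 to 628, 619.9 and 640.2. Adam22 rose by 0.69 (adjusted p = 0.0108), a call lost without Rnf40-/- replicate 2. Adam22 and Adam23 encode receptors of the same secreted LGI proteins. Adam11 did not pass (log2 fold change 0.22, adjusted p = 0.445). Of the 14 germ-cell or other Adam genes, 7 had no read in any library (Adam2, Adam24, Adam25, Adam29, Adam30, Adam34 and Adam39), 3 had too few (Adam7, Adam18 and Adam21) and none of the 4 tested passed (Adam3, Adam4, Adam5 and Adam32). Adam3 came nearest, with 9.55, 6.12 and 1.60 in Rnf40+/+ and 14.3, 12.5 and 16.1 in Rnf40-/- libraries (log2 fold change 1.39, adjusted p = 0.0568). With 1 library left out its log2 fold change ranged from 0.81, without Rnf40+/+ replicate 3, to 1.82, and it passed the test without Rnf40+/+ replicate 1.

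Of 18 listed genes that activate or restrain these enzymes, 16 were tested, 6 rose (37.5%, against 23.3% of all genes) and 4 fell (25%, close to the 24.1% of all genes), with a median log2 fold change of 0.16. Pcsk6, a proprotein convertase that can activate proteinase precursors, changed most, from 394, 467 and 418 in Rnf40+/+ to 1005, 1018 and 985 in Rnf40-/- libraries (log2 fold change 1.24, SE 0.08, adjusted p = 4.25e-07). Furin, the convertase that removes the propeptides of Mmp14 and Mmp11, fell by 0.37 in log2 units (adjusted p = 0.000459), and Pcsk5 rose by 0.33 (adjusted p = 0.0305). Reck, a membrane-bound inhibitor of MMPs, rose by 0.34 (adjusted p = 0.0018), and Rhbdf1, which carries Adam17 to the cell surface, rose by 0.57 (adjusted p = 2.76e-05). Lrp1, the receptor that clears MMPs and their inhibitors from the medium, fell by 0.61 (adjusted p = 2.71e-05). Cd44, which docks Mmp9 and Mmp14 at the membrane, fell by 0.46 (adjusted p = 0.000476).

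The plasminogen activator system, whose product plasmin activates several MMPs, changed in 8 of the 9 genes tested (88.9%, against 47.4% of all genes), with 4 higher, 4 lower and a median log2 fold change of 0.21. Both activators rose, Plau by 0.53 and Plat by 0.88 in log2 units (adjusted p = 5.04e-05 and 1.02e-06). The receptor Plaur fell by 0.41 (adjusted p = 0.00673), while Plg, which encodes plasminogen itself, had no read. Of the astacin proteinases, which trim the C-terminal ends of procollagens, Tll1 fell by 1.02 (adjusted p = 6.49e-07) and Bmp1 did not pass (log2 fold change -0.05, adjusted p = 0.62). Their enhancers Pcolce and Pcolce2 fell by 0.39 and rose by 0.66 (adjusted p = 0.00151 and 0.00226).

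Substrates of the enzymes fell or did not pass. Of 11 tested among 12 listed, 7 fell and none rose, with a median log2 fold change of -0.73 (24.1% of all genes fell). Of these 12, 4 are also among the fibroblast markers above. Eln, which encodes elastin, the substrate of Mmp12, had normalized counts of 227, 328 and 843 in Rnf40+/+ and 11.2, 20.9 and 6.61 in Rnf40-/- libraries (log2 fold change -4.98, SE 0.45, adjusted p = 3.62e-06). Col1a2 fell by 2.26, Bgn (biglycan) by 1.29, Vcan (versican, a substrate of Adamts1) by 0.73 and Fn1 (fibronectin) by 0.64 in log2 units (adjusted p = 7.63e-09, 4.00e-07, 8.98e-06 and 0.000463). Rnf40+/+ replicate 3 was highest for Eln as for Mmp11, Adamts2 and Adam33.

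Markers of further cell types were detected at different levels. For comparison, 23.3% of all genes tested were higher and 24.1% lower. The 8 endothelial markers summed to 152 to 288 in Rnf40+/+ and 252 to 349 in Rnf40-/- libraries, with 3 of 7 tested higher (Pecam1, Cdh5 and Kdr) and Emcn lower, and Cldn5 at or near 0. Epithelial markers summed to 42.8 to 109.9 and 61.4 to 85.7, with Cldn4 higher among the 4 of 8 tested. Neuron markers summed to 904 to 954 and 909.5 to 930.03. Among the 3 of 8 tested, Stmn2 was higher and Gap43 lower, and Rbfox3 was at or near 0. Chondrocyte and osteoblast markers summed to 1941 to 2440 and 1112 to 1161, with 4 of 4 tested lower (Sox9, Col2a1, Runx2 and Sp7). The other 5 of the 9 listed had too few reads to be tested. The part of such cells in the metalloproteinase values was not tested.

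Some of these genes appear on lists that the study made from histone mark or EZH2 binding data, of which only incomplete copies were read, as names alone. On the list with broad H3K4me3, a mark of active promoters, Adamts1, Adamts5 and Timp2 rose, Adamts6, Mmp14 and Timp1 fell, and Timp3 did not pass. Adam9 was on the list with sharp H3K4me3. On the list of targets of EZH2, the enzyme that sets the repressive mark H3K27me3, Adamts8 rose whereas Mmp9 and Mmp17 fell. No overlap was tested.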

How the data were processed

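RNA-seq libraries of Rnf40+/+ and Rnf40-/- MEFs (n = 3 each) were analysed from 1 deposited table. Per gene, the deposited signal is the read count divided by the size factor of DESeq for that library, as computed by the authors. The submitters' processing notes name Bowtie2 (version 2.1.0), DESeq (version 1.14.0) and mm9, and the counting tool and its use of strand are not given in the sources used here. Every library's positive values (100%) equalled a whole number of reads within 0.01, and these reads were used for filtering and for count tests. All 6 columns were matched to samples by title.

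Genes passing filterByExpr of edgeR (version 4.0.16) by genotype were tested with limma (version 3.58.1, R version 4.3.3), on log2(normalized count + 1) with genotype alone in the model and an eBayes trend, and p-values were adjusted by the Benjamini-Hochberg method across the table. With 1 added, fold changes of low genes come out too small. A gene was called at an adjusted p under 0.05. On simulated data for the same 16378 genes, limma recovered 199 of 200 changed genes. The changed genes were drawn from well-covered genes, with 1 small spread for all genes and no outlying library. This checks the code and does not give the sensitivity for low or widely spread genes. Genes given with values in every library were those past the criteria of the study, all TIMPs, and Mmp2, Mmp3, Mmp9, Mmp13, Mmp14, Adam10 and Adam17, and others were added to show which libraries their values rest on. The genes and all lists were chosen with earlier results of these data known, and 1 listed gene outside the 77 is not reported here and was left out of its list's counts and median. Exon lengths and mm9 positions came from GENCODE (all 77 genes matched by symbol) and promoters from RefSeq (47 matched). A planned search of protein motifs was not run, and groups of Adam genes by proteinase site follow general knowledge. Alternatives were other size factors, tests (edgeR, and DESeq2 version 1.42.0), pseudocounts, filters, a replicate block and each library left out.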

Additional observations from a re-analysis of the deposited data

How the results depend on the processing

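Of the 37 calls, all 37 were shared with TMM or upper-quartile size factors, the quasi-likelihood test of edgeR on recovered reads (3857 genes higher and 3940 lower in the whole table), pseudocounts of 0.1 and 10, and a filter on a mean above 15. The Wald test of DESeq2 lost Adam33, and no filter lost Adamts5 and gained Adam18. The criteria of the study, applied to limma values, left 5 genes higher and 8 lower, since they add a minimum fold change, which Timp2, Mmp2, Adam10 and Adam17 among others did not reach. Leaving out each library gave 14 to 19 genes higher and 18 to 20 lower. The median log2 fold change over the metalloproteinase and inhibitor genes, given without a test, was 0.147 with no filter and 0.0228 to 0.14 with a library left out, the highest without Rnf40+/+ replicate 3. Under every alternative but the criteria of the study, none of the 19 tested genes chosen by rule for values in every library changed its direction or its side of the threshold. Most of these genes were chosen for passing the threshold with a large fold change in the main fit, so this was largely set in advance. Among the other calls, Adam33, Adamts5, Adam9, Mmp16, Adam22 and Adamtsl3 were each lost under some alternative. The all-gene median moved by under 0.1 in every alternative. Same-numbered libraries had correlations of their deviations of 0.02, 0.03 and 0.04, so the numbers were not taken as pairing, and a replicate block gave 18 genes higher and 19 lower. Depth limits the 23 genes not tested, and at values near 3 reads a difference was not detectable at this depth.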

Other observations

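A few genes with too few reads to be tested still differed between libraries. Adam18, a sperm protein, had normalized counts of 0, 2.04 and 0 in Rnf40+/+ and 9.18, 7.31 and 12.3 in Rnf40-/- libraries, from 31 reads in all, without overlap. Mmp27, in the chromosome 9 cluster, had 7.17, 4.08 and 1.60 in Rnf40+/+ and 13.3, 9.39 and 9.44 in Rnf40-/- libraries. Without Rnf40+/+ replicate 1 it entered the test and passed. Adam18 and Mmp27 both rest on few reads, with several values at or below the limit of detection. Adamts18 was at 35.8 in Rnf40+/+ replicate 1 and at 0.94 to 6.12 in the other 5 libraries, and that library also held 115 of Syt1, a neuron marker at 0.80 to 15.1 elsewhere. Syt1 was picked from 8 neuron markers, whose sum was 954 in that library and 945 and 904 in the other Rnf40+/+ libraries. Snap25 was also highest there (39.4, 2.04 and 3.99 in Rnf40+/+ libraries), but no other listed neuron marker was, and Gap43 was lowest of its group (283, 367 and 446). Single markers of other cell types were highest in that library as well, such as Tek (115, 11.2 and 16.0) and Krt8 (58.5, 1.02 and 9.58). The part of any cell type in these values was not tested. Adamts20, which pigment cell precursors need, was highest in Rnf40-/- replicate 2, at 20.9, against 3.06 and 11.3 in the other Rnf40-/- libraries and 4.08 to 7.99 in Rnf40+/+ libraries.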
